A study of Mus musculus with 8 samples.

Results

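The fat cell genes described here are 10 genes whose products store, release or signal the lipid of adipocytes. They are *Fabp4*, *Cd36*, *Lpl*, *Plin1*, *Cidec*, *Lipe*, *Adipoq*, *Lep*, *Retn* and *Cfd*. They were taken by gene symbol from the 23358 gene rows of the RNA-seq table, and all 10 symbols were found. The 10 genes were chosen by their levels in the tail of the cervical loop, known from an earlier look at these data, so that their levels in that region are given as a description, with no test. Each of their levels is given in all 8 libraries.

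The study compared tissue of the cervical loop, the growing end of the mouse incisor, between *Med1* cKO mice and littermate Ctrl mice of the C57BL/6 strain at 4 weeks of age. CLH, the head of the loop, holds the dental epithelial stem cells, and CLT, its tail, holds their progenies. The 4 groups were Ctrl CLH, cKO CLH, Ctrl CLT and cKO CLT, with 2 libraries each, numbered 1 and 2. The litters behind the duplicates were independent, and several cervical loop tissues were pooled in each group. The sample titles call the Ctrl tissue WT and the cKO tissue KO. In cKO mice, Cre recombinase under the *Krt14* promoter removes the floxed exons 8 to 10 of *Med1*, a subunit of the Mediator complex, and Ctrl mice lack Cre. That promoter drives Cre in epithelial cells, whereas adipocytes are mesenchymal cells. Which cells of these samples lost *Med1* was not tested. The labels name the material dental epithelial cells from incisors. The epithelial keratins *Krt14* (178 to 649 RPKM) and *Krt5* (268 to 1079 RPKM) were present in all 8 libraries. The 7 ameloblast markers, which stand for the enamel-forming cells among the progenies, summed to 84584 and 37392 RPKM in Ctrl CLT but to 19.7 and 15.8 RPKM in cKO CLT, and all 7 were called lower there. RPKM divides the reads of a gene by its length and by the total of the library, so that levels of different genes can be compared. The values corresponded to 26590000 to 34420000 reads per library, of which 82.2% to 85.6% lay on genes.

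The 2 Ctrl CLT libraries stood apart from each other. The median absolute difference between the libraries of a group was 0.404 on the log2(RPKM + 1) scale in Ctrl CLT, while cKO CLT had 0.105, cKO CLH 0.113 and Ctrl CLH 0.0922. The libraries Ctrl CLT 1 and Ctrl CLT 2 are therefore given apart throughout.

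Adipocytes take up fatty acids released from circulating lipoproteins by the lipase LPL, carry them through the membrane with CD36 and within the cell with the carrier FABP4, and store them as triglyceride in a lipid droplet coated by perilipin (PLIN1) and enlarged by CIDEC. Hormone-sensitive lipase (LIPE) breaks the stored lipid down when energy is needed. The cells also secrete hormones, the adipokines, among them adiponectin (ADIPOQ), leptin (LEP), resistin (RETN) and adipsin (CFD). The nuclear receptor PPARG and the transcription factor CEBPA maintain the mature fat cell, and C/EBP factors bind sites of the form TTGCNNAA. Not all 10 genes are restricted to fat: FABP4 and CD36 are also made by endothelial cells and macrophages, LPL, LIPE and CD36 also by muscle.

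Promoter sequence before the start site was available for 8 of the 10 genes in a RefSeq table (build GRCm38.p6, windows of 250 bases before to 50 bases after the start site, 10 windows for the 8 genes). *Fabp4* and *Lpl* had no entry. The letters TTGCNNAA occurred on either strand in windows of 3 of the 8 genes, beside 12.2% of all genes in the table and 10.8% of its 32851 windows. The 250 bases before the start site of these 3 are shown, 5′ to 3′ on the strand of the gene and with the matches in capitals, because *Cebpa* is the regulator described together with these genes.
*Lep*, chr6:29059971-29060220 (plus strand): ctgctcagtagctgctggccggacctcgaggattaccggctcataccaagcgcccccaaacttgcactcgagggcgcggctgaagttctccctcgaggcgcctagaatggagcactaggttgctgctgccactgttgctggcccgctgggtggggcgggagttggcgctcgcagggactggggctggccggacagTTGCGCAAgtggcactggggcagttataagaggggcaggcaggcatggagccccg
*Plin1*, chr7:79732777-79733026 (minus strand): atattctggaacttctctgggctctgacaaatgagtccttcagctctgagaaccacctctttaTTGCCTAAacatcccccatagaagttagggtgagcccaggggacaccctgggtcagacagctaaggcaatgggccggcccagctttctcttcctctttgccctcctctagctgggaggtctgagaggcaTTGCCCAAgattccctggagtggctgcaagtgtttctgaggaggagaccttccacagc
*Cidec*, chr6:113434765-113435014 (minus strand): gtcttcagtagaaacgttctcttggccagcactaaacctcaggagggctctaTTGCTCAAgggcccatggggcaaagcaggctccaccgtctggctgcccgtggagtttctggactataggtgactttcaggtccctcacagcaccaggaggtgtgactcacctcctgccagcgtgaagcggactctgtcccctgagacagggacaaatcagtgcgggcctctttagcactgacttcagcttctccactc

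The match in *Lep* began at position -55 from the start site and reads the same on both strands. *Plin1* held matches at -187 and -58. *Cidec* held 1 at -198 of its downstream start site and none in the window of its other one. These are letter matches and not measured binding. The single site of nuclear receptors, AGGTCA, occurred in 1 of the 8 genes (*Cd36*, 18.1% of all genes), and 2 such sites of the form AGGNCA spaced by 1 base, the DR1 arrangement that PPARG with RXRA binds, in 0 of 8 (0.451% of all genes). A TATAAA occurred in 0 of 8 (15.7% of all genes) and a GGGCGG in 3 of 8, *Cd36*, *Lep* and *Lipe* (38.2% of all genes). All motifs were searched on both strands, and a DR1 can itself contain the single site.

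All 10 genes had their highest levels in the 2 cKO CLT libraries, and in all 10 the library Ctrl CLT 1 lay between Ctrl CLT 2 and cKO CLT. Levels in Ctrl CLT 1 were 20.9% to 43.3% of the cKO CLT mean (median 35.7%). Levels in Ctrl CLT 2 were close to those in CLH or at 0. Taken over the 10 genes, the summed level was 20.3 to 28.5 RPKM in the 4 CLH libraries, 287 RPKM in Ctrl CLT 1, 23.1 RPKM in Ctrl CLT 2, and 781 and 724 RPKM in cKO CLT. In a bulk sample, more cells of a type and more RNA per cell cannot be told apart. Both cKO libraries lay above both Ctrl libraries for 10 of the 10 genes in CLT, which was so for 37.2% of the 14148 genes tested. Ctrl CLT 1 lay between Ctrl CLT 2 and both cKO CLT libraries, rising, for 26.7% of the genes tested. The choice of the genes was taken to have used these same libraries, so that nothing is read from the 2 counts.

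**Figure D1:**
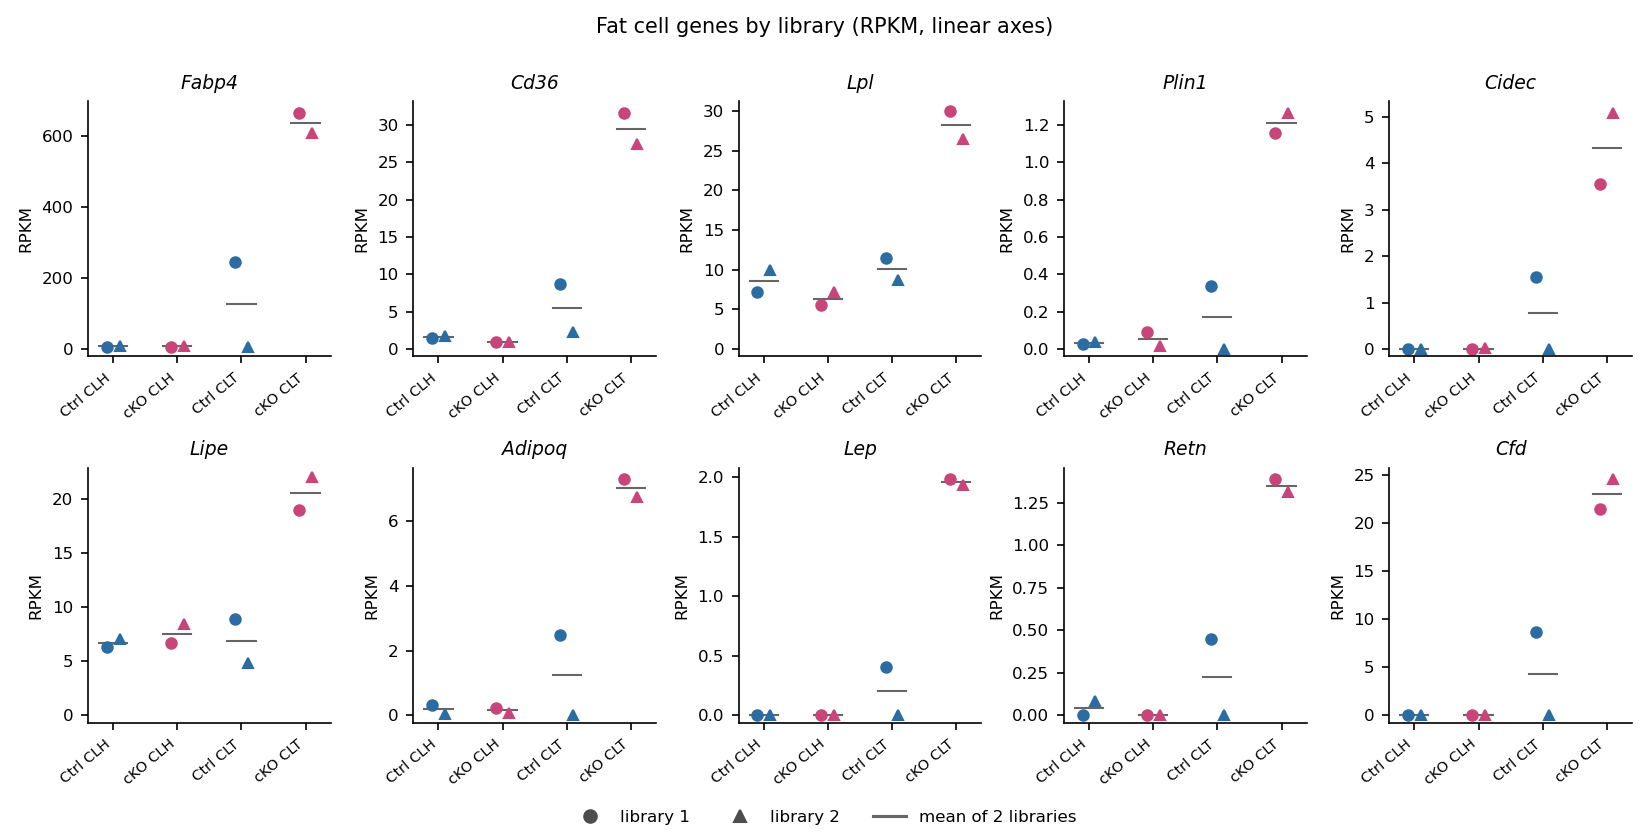
Level of each of the 10 fat cell genes in RPKM (vertical axes, linear, a scale for each gene) in the 4 groups, with circles for library 1, triangles for library 2 and a line at the mean of the 2. In every panel the cKO CLT libraries are highest and Ctrl CLT 1 lies above Ctrl CLT 2, as for *Fabp4* at 663 and 608 RPKM against 244 and 7.22 RPKM.

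The carrier *Fabp4* (chr3:10204343-10208576, mm10) was the most abundant of the 10 in CLT of cKO mice. Its level was 663 and 608 RPKM in cKO CLT, 244 RPKM in Ctrl CLT 1 and 7.22 RPKM in Ctrl CLT 2. The 4 CLH libraries had 7.03 and 9.52 RPKM (Ctrl) and 6.75 and 9.08 RPKM (cKO). Ctrl CLT 2 thus lay within the range of the 4 CLH libraries. Ranked by RPKM within a library, *Fabp4* held rank 89 and 102 of the 23358 rows in cKO CLT and rank 191 in Ctrl CLT 1, but ranks from 6832 to 8264 in the other 5 libraries. The cKO CLT mean of 635 ± 39.6 RPKM (SD, n = 2) was 2.61 times the level of Ctrl CLT 1 and 88.1 times that of Ctrl CLT 2. The mean of Ctrl CLT, 126 ± 167 RPKM (SD, n = 2), described neither of its libraries. The log2 fold change in CLT was 3.83, or 6.27 without Ctrl CLT 1 and 1.38 without Ctrl CLT 2. Over the other 9 genes this log2 fold change ran from 0.93 (*Plin1*) to 2.95 (*Cfd*), on a scale that understates the change of genes near 0.

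*Cd36* (chr5:17781690-17888959), the fatty acid transporter of the membrane, reached 31.6 and 27.4 RPKM in cKO CLT, with 8.67 RPKM in Ctrl CLT 1 and 2.32 RPKM in Ctrl CLT 2. Its levels in CLH were 1.46 and 1.71 RPKM in Ctrl and 0.981 and 1.03 RPKM in cKO. Here Ctrl CLT 2 was above all 4 CLH libraries, though by far less than Ctrl CLT 1. The cKO CLT mean was 3.40 times Ctrl CLT 1 and 12.7 times Ctrl CLT 2.

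*Lpl* (chr8:68880555-68906932), the lipase that frees fatty acids from lipoproteins, differed least between the Ctrl CLT libraries, at 11.5 and 8.67 RPKM. The cKO CLT libraries held 30.0 and 26.5 RPKM, 2.47 times Ctrl CLT 1 and 3.26 times Ctrl CLT 2 as a mean. Its CLH levels of 7.19 and 9.96 RPKM in Ctrl and 5.52 and 7.19 RPKM in cKO overlapped those of Ctrl CLT. *Fabp4*, *Lpl* and *Lipe* were the 3 of the 10 genes above 5 RPKM in all 4 CLH libraries.

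The droplet proteins were near the limit of detection outside cKO CLT and Ctrl CLT 1. *Plin1* (chr7:79721164-79732776) was at 1.15 and 1.26 RPKM in cKO CLT, 62 and 66 reads, and at 0.339 RPKM in Ctrl CLT 1, 19 reads. It had no read in Ctrl CLT 2 and 1 to 6 reads in each CLH library. *Cidec* (chr6:113424636-113435755) was at 3.56 and 5.08 RPKM in cKO CLT and at 1.55 RPKM in Ctrl CLT 1. It had no read in Ctrl CLT 2 and a single read over the 4 CLH libraries. A library without a read allows up to 3 reads by counting error, the floor used for bounds. Against that floor in Ctrl CLT 2, the cKO CLT mean was at least 20.5-fold higher for *Plin1* and at least 65.2-fold higher for *Cidec*.

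*Lipe* (chr7:25379527-25395987), the hormone-sensitive lipase, was expressed in all 8 libraries. Its level was 19.0 and 22.1 RPKM in cKO CLT, 8.90 RPKM in Ctrl CLT 1 and 4.86 RPKM in Ctrl CLT 2. In CLH it was 6.37 and 7.07 RPKM in Ctrl and 6.71 and 8.43 RPKM in cKO. Ctrl CLT 2 was the lowest of the 8 libraries. The cKO CLT mean was 2.31 times Ctrl CLT 1 and 4.23 times Ctrl CLT 2. In the GENCODE M21 annotation, *Lipe* shares 918 exon bases with the antisense gene *4732471J01Rik*, and the library kit does not mark strand, so that reads of the 2 genes cannot be told apart there. The other 9 genes had no such overlap.

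The 4 secreted products divided samples in the same way. *Adipoq* (chr16:23146536-23157968), which encodes adiponectin, was at 7.30 and 6.76 RPKM in cKO CLT, 2.50 RPKM in Ctrl CLT 1 and 0 in Ctrl CLT 2. *Cfd* (chr10:79890853-79892656), the complement protease adipsin, was the most abundant of the 4, at 21.5 and 24.6 RPKM in cKO CLT, 8.70 RPKM in Ctrl CLT 1 and 0 in Ctrl CLT 2. *Lep* (chr6:29060221-29073876), the satiety hormone leptin, was at 1.98 and 1.94 RPKM in cKO CLT, 0.409 RPKM in Ctrl CLT 1 and 0 in Ctrl CLT 2.

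*Retn* (chr8:3655770-3659818), which encodes resistin, was the least covered of these, at 1.39 and 1.31 RPKM in cKO CLT, 50 and 46 reads, with 17 reads in Ctrl CLT 1 and none in Ctrl CLT 2. The cKO CLT mean of the 4 genes was 2.65 to 4.79 times Ctrl CLT 1, lowest for *Cfd* and highest for *Lep*. Against the floor of Ctrl CLT 2 it was at least 76.7-fold higher for *Adipoq*, at least 188-fold for *Cfd*, at least 56.6-fold for *Lep* and at least 15.4-fold for *Retn*. Ctrl CLT 1 itself was at least 71.2-fold above that floor for *Cfd* and at least 27.3-fold for *Adipoq*. The bounds order the genes by read number as much as by level, since the floor is a fixed number of reads.

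The proportions of the 10 genes to each other were compared in the 3 libraries with their highest levels. Divided by the level of *Adipoq* in the same library, *Fabp4* was 97.7 in Ctrl CLT 1, and 90.9 and 89.9 in the 2 cKO CLT libraries. The same ratio for *Cfd* was 3.49, 2.95 and 3.64, and for *Lpl* 4.59, 4.11 and 3.93. *Retn* was at 0.181, 0.190 and 0.194 of the *Adipoq* level. The ratio of Ctrl CLT 1 lay between those of the cKO CLT libraries for *Cfd* and *Cidec* only. It lay above both for *Fabp4*, *Lpl* and *Lipe*, and below both for *Retn*, *Plin1*, *Cd36* and *Lep*. The clearest departure was *Lep*, at 0.164 of *Adipoq* in Ctrl CLT 1, where it had 39 reads, against 0.272 and 0.287 in cKO CLT. *Fabp4* took 54.6% and 53.6% of the reads on the 10 genes in the cKO CLT libraries and 55.4% in Ctrl CLT 1, but 7.15% to 8.73% in Ctrl CLT 2 and CLH, where *Lpl* and *Lipe* carried most reads. Per 1000000 gene reads, those on the 10 genes numbered 331 in Ctrl CLT 1, 947 and 879 in cKO CLT, and 62.9 to 92.1 in Ctrl CLT 2 and CLH.

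CLH was taken as the region that the choice of genes did not rest on, although its values were known too when the genes were chosen. Which values the choice used is not stated, so that the CLH tests may not be independent of it. In CLH, 4 of the 10 genes had enough reads for a test of cKO against Ctrl. Differences were tested with limma on log2(RPKM + 1), with adjustment over the 14148 genes with at least 1 RPKM in at least 2 libraries. *Fabp4* differed by -0.06 on the log2 scale (SE 0.20, adjusted p = 0.95), *Lipe* by 0.14 (SE 0.13, adjusted p = 0.79) and *Lpl* by -0.37 (SE 0.19, adjusted p = 0.71). For each of the 3, the cKO CLH and Ctrl CLH libraries overlapped. *Cd36* differed by -0.37 (SE 0.08, adjusted p = 0.69 by limma), with both cKO CLH libraries below both Ctrl CLH libraries. It failed the adjustment, and 18.8% of the genes tested had both cKO CLH libraries lower, 19.9% both higher. Over all genes, 0 were called in CLH in either direction (0.00% higher and 0.00% lower), while limma without adjustment put 684 higher and 343 lower past 0.05 and voom called 0.

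The other 6 genes passed the filter on low values only through CLT, and *Plin1*, *Lep* and *Retn* only through cKO CLT. Their reads over the 4 CLH libraries summed to 29 for *Adipoq* (2 to 14 per library), 11 for *Plin1*, 3 for *Retn*, 1 each for *Cfd* and *Cidec*, and 0 for *Lep*. A difference between cKO and Ctrl in CLH was not detectable for them at this depth. Between regions of cKO mice, the CLT mean was 80.3 times the CLH mean for *Fabp4*, 43.5 times for *Adipoq*, 29.4 times for *Cd36* and 4.45 and 2.71 times for *Lpl* and *Lipe*. For *Cfd* it was at least 223-fold and for *Lep* at least 67.0-fold above the CLH floor. These ratios use the CLT values on which the choice of genes was taken to rest and are a description.

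Genes of fat metabolism outside the 10 were counted in 9 lists with 98 genes, of which 90 were tested. In CLT, 2 of the 90 were called higher, *Scd1* and *Cav1*, and 1 lower, *G0s2*, beside 0.0777% and 1.68% of all genes tested (11 higher and 237 lower). Without adjustment, 48 of the 90 were higher and 11 lower at a limma p under 0.05, beside 2802 and 2314 of the 14148 genes tested. The lists were chosen with earlier results of these data known. The median log2 fold change of the 90 was 0.58, against -0.01 over all genes tested. Both cKO CLT libraries were above both Ctrl CLT libraries for 56 of the 90 and below for 23, beside 37.2% and 35.1% of all genes. The 3 calls were lost with no filter on low values and in a model of the recovered reads (voom). With median-of-ratios scaling the 2 higher calls were lost as well, *Scd1* at an adjusted p of 0.053 and *Cav1* at 0.052 by limma. Counts of calls moved with single libraries. Without Ctrl CLT 1, 55 of the 90 were called higher and 25 lower, without Ctrl CLT 2 53 and 18, and without cKO CLT 1 or without cKO CLT 2 0 and 0. In CLH, limma called 0 of the 90 in either direction, voom called 0, and the median was 0.03. There, 6 of the 90 were higher and 3 lower at an unadjusted limma p under 0.05, beside 684 and 343 of the 14148 genes tested.

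**Figure D2:**
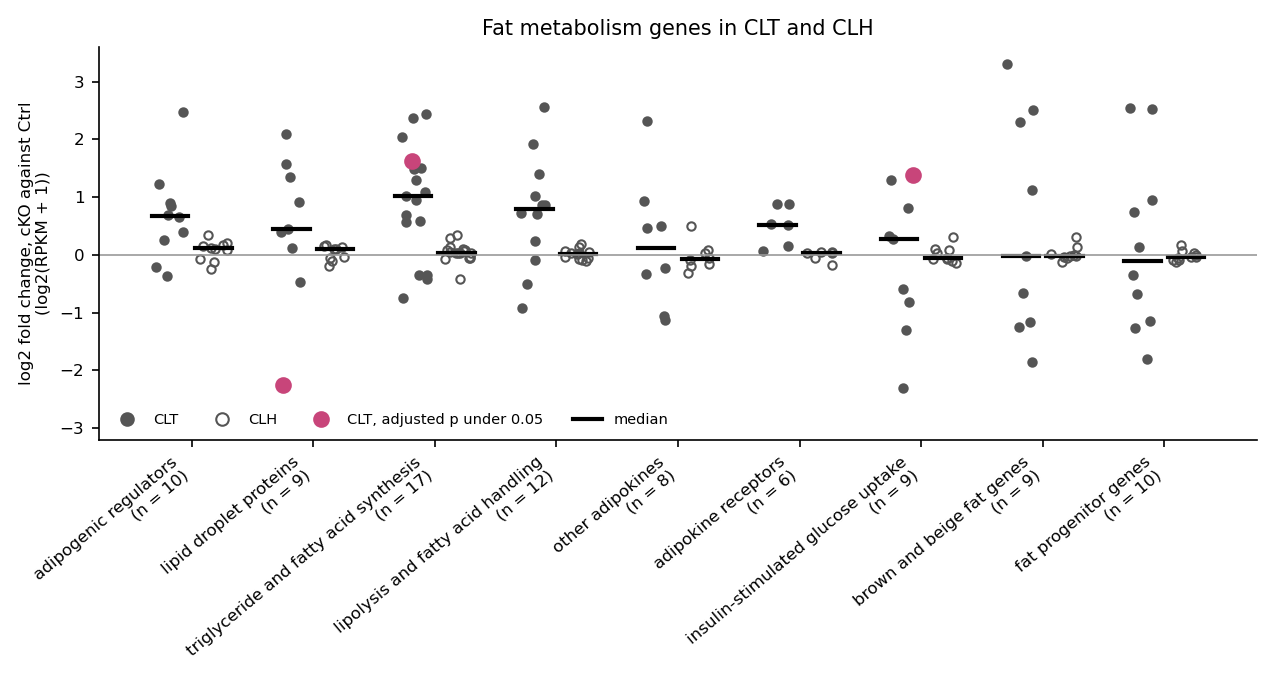
Log2 fold change of cKO against Ctrl on the log2(RPKM + 1) scale (vertical axis) for each tested gene of the 9 lists, filled for CLT and open for CLH, with bars at the medians and large points for genes called in CLT. Points of CLH stay near 0, while those of CLT spread from -2.30 to 3.31 with medians up to 1.03.

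Of the 10 tested regulators of fat cell formation, none was called in CLT, 8 had a positive and 2 a negative log2 fold change, and the median was 0.67. *Pparg*, the nuclear receptor that directs fat cell formation, was at 4.49 and 4.47 RPKM in cKO CLT and at 1.998 and 1.895 RPKM in Ctrl CLT, which made 0.90 on the log2 scale (SE 0.17, adjusted p = 0.070 by limma). Its Ctrl CLT libraries lay close to each other, unlike those of *Fabp4* or *Adipoq*. *Cebpa*, its partner in mature fat cells and also a factor of epidermal cells, was at 31.0 and 31.0 RPKM in cKO CLT, 11.8 RPKM in Ctrl CLT 1 and 1.55 RPKM in Ctrl CLT 2. On the log2 scale the difference was 2.48 (SE 0.83, adjusted p = 0.12), and its order of libraries was that of the fat cell genes. *Rxra*, the receptor that pairs with PPARG, was at 31.9 and 33.9 RPKM against 21.7 and 14.6 RPKM (0.84, adjusted p = 0.098 by limma). *Cebpb*, another regulator of this list, was at 6.69 and 7.48 RPKM in cKO CLT against 4.11 and 1.30 RPKM in Ctrl CLT. It was not called (1.24, adjusted p = 0.13 by limma). The study counts *Cebpb* among epidermal factors whose mRNA it reports as raised in cKO CLT, and reports a larger enhancer after *Med1* loss.

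**Figure D3:**
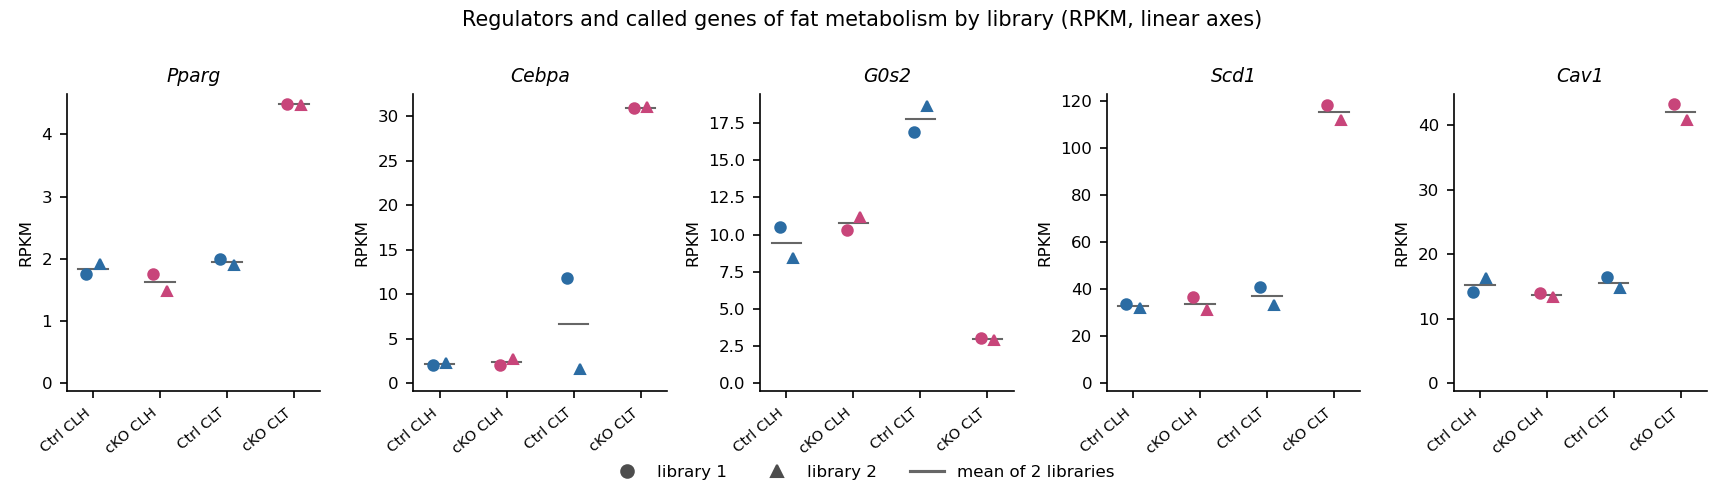
Levels in RPKM (vertical axes, linear) of *Pparg*, *Cebpa*, *G0s2*, *Scd1* and *Cav1* in the 4 groups, with circles for library 1, triangles for library 2 and a line at the mean. The 2 Ctrl CLT libraries are close for all but *Cebpa*, at 11.8 and 1.55 RPKM, and *G0s2* is the gene that is lowest in cKO CLT.

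Among 9 tested droplet proteins, *G0s2* fell in cKO CLT and none was called higher, with a median log2 fold change of 0.45. *G0s2*, which encodes an inhibitor of the first triglyceride lipase, was at 3.004 and 2.914 RPKM in cKO CLT and at 16.9 and 18.6 RPKM in Ctrl CLT (log2 fold change -2.24, SE 0.16, adjusted p = 0.031 by limma). Of the 9, 7 were positive, among them *Plin4* at 2.09 (adjusted p = 0.091 by limma), *Fitm2* at 1.35 (0.064) and *Plin2* at 0.92 (0.064). The next 2 genes were named by their p in CLH and not by their change in CLT. *Bscl2*, which encodes the droplet protein seipin, was at 23.3 and 23.4 RPKM against 18.2 and 16.7 RPKM (0.40, adjusted p = 0.13). *Fitm1*, which acts in droplet formation in muscle, was at 5.40 and 5.55 RPKM against 2.29 RPKM in Ctrl CLT 1 and 0.454 RPKM in Ctrl CLT 2.

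The list of triglyceride and fatty acid synthesis had the largest median, 1.03 over 17 tested genes, with 13 positive and 4 negative. *Scd1*, the desaturase that makes monounsaturated fatty acids, rose to 119 and 112 RPKM in cKO CLT from 40.7 and 33.3 RPKM in Ctrl CLT (log2 fold change 1.62, SE 0.17, adjusted p = 0.046). It is made by sebaceous glands as well as by fat. *Fasn*, the fatty acid synthase, was at 23.0 and 26.8 RPKM against 11.6 and 11.7 RPKM (1.03, SE 0.16, adjusted p = 0.062). *Thrsp*, which accompanies lipid synthesis, was at 1.62 and 2.51 RPKM against 0.790 and 0.362 RPKM (0.96, adjusted p = 0.099 by limma).

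Of the 12 tested genes of lipolysis and fatty acid handling, none was called in CLT, 9 were positive and 3 negative, with a median of 0.79. *Abhd5*, the activator of the first triglyceride lipase, was at 30.7 and 29.3 RPKM in cKO CLT and at 16.98 and 11.96 RPKM in Ctrl CLT (1.02, adjusted p = 0.076). *Gpihbp1*, which holds LPL at the capillary wall, was at 20.3 and 20.9 RPKM against 12.4 and 9.53 RPKM (0.86, adjusted p = 0.077). *Aqp7*, the glycerol channel of fat cells, was at 2.77 and 2.43 RPKM against 0.840 RPKM in Ctrl CLT 1 and 0.0149 RPKM, 1 read, in Ctrl CLT 2.

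The other adipokines had no call in CLT, with 4 of 8 tested genes positive and a median of 0.13. *Adm*, adrenomedullin, was at 5.32 and 6.05 RPKM in cKO CLT and at 2.65 and 2.31 RPKM in Ctrl CLT (0.94, adjusted p = 0.071 by limma). *Apln*, apelin, was at 1.48 and 0.943 RPKM against 2.87 and 4.40 RPKM (-1.06, adjusted p = 0.091). All 6 adipokine receptor genes were positive and none was called, with a median of 0.52. Among them *Cdh13*, which binds adiponectin, was at 12.2 and 12.4 RPKM against 6.64 and 5.83 RPKM (0.88, adjusted p = 0.069 by limma). *Adipor2*, an adiponectin receptor, was at 43.8 and 41.0 RPKM against 27.7 and 18.1 RPKM (0.89, adjusted p = 0.099).

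Of 9 tested genes of insulin-stimulated glucose uptake, *Cav1*, the caveolin of the membrane pits that are dense in fat cells and endothelium, rose to 43.3 and 40.8 RPKM in cKO CLT from 16.5 and 14.7 RPKM (1.38, SE 0.15, adjusted p = 0.047). Of the other 8 genes, 4 were positive and 4 negative, and the median of the 9 was 0.28. *Irs2*, a docking protein of the insulin receptor named by its p in CLH, was at 2.19 and 2.69 RPKM against 4.745 and 5.305 RPKM (-0.81, adjusted p = 0.082). *Slc2a4* was at 5.49 and 5.65 RPKM against 1.99 and 1.41 RPKM (1.29, adjusted p = 0.062 by limma).

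Genes of brown and beige fat and of fat progenitors showed no common direction in CLT, with 4 of 9 and 5 of 10 positive, medians of -0.01 and -0.11 and no call. *Ppargc1a*, the coactivator of heat-producing fat, was at 1.01 and 1.19 RPKM in cKO CLT and at 3.55 and 4.40 RPKM in Ctrl CLT (-1.24, adjusted p = 0.063). *Zic1*, a transcription factor found in brown fat, was at 1.88 and 1.55 RPKM against 0.469 and 0.0561 RPKM (1.12, adjusted p = 0.080). *Ucp1*, the uncoupling protein that defines brown fat and was added after its values were seen, did not pass the filter, at 0 to 0.0686 RPKM in the 4 CLT libraries and 0.230 to 0.724 RPKM in CLH. Of the progenitor genes, *Ly6a* was at 53.2 and 50.2 RPKM against 26.9 and 25.8 RPKM (0.95, adjusted p = 0.061) and *Cd34* at 44.3 and 43.0 RPKM against 26.1 and 25.4 RPKM (0.74, adjusted p = 0.068).

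Whether cKO acted differently in CLT than in CLH was tested with a limma interaction term for the 90 genes, and not for the 10 fat cell genes. It was larger in CLT for 25 of the 90 and smaller for 4, beside 8.05% and 9.58% of all genes tested, with a median of 0.53. *Scd1*, *Cav1* and *G0s2* were among them, with differences of 1.59, 1.52 and -2.42 on the log2 scale (adjusted p = 0.0066, 0.0051 and 0.0023). *Pparg* was too, at 1.01 (SE 0.18, adjusted p = 0.020), whereas *Cebpa*, at 2.40 (SE 0.95, adjusted p = 0.12), was not. The interaction fit took a common spread for the 4 groups, although the Ctrl CLT libraries differed most from each other. Its p-values do not take this into account. Of the 25 genes with a larger effect in CLT, 9 belonged to triglyceride and fatty acid synthesis, which has 17 tested genes. The counts moved to 53 and 23 without Ctrl CLT 1 and to 47 and 15 without Ctrl CLT 2, and to 1 or 2 and 1 without any 1 of the other 6 libraries.

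Most markers of skeletal muscle and sebaceous gland moved with the fat cell genes. The 11 tested skeletal muscle markers all had both cKO CLT libraries above both Ctrl CLT libraries, beside 37.2% of all genes tested. Their median log2 fold change was 3.096. The 12 muscle markers summed to 35.0 to 42.1 RPKM in CLH, 848 RPKM in Ctrl CLT 1, 64.9 RPKM in Ctrl CLT 2 and 2261 and 2478 RPKM in cKO CLT. Their level in Ctrl CLT 1 was 34.1% of that in cKO CLT as a median (27.8% to 41.1%), beside 35.7% for the fat cell genes, and in Ctrl CLT 2 it was 2.95%. *Acta1*, the actin of skeletal muscle, was at 551 and 659 RPKM in cKO CLT, 190 RPKM in Ctrl CLT 1 and 10.3 RPKM in Ctrl CLT 2.

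Of the 10 sebaceous gland markers, 9 had both cKO CLT libraries higher and 1 lower, beside 37.2% and 35.1% of all genes tested. Their median log2 fold change was 2.34. They summed to 48.6 to 50.5 RPKM in CLH, 207 RPKM in Ctrl CLT 1, 49.7 RPKM in Ctrl CLT 2 and 590 and 584 RPKM in cKO CLT, and their median level in Ctrl CLT 1 was 32.6% of that in cKO CLT. *Krt79*, a keratin of the sebaceous duct, was at 200 and 219 RPKM in cKO CLT, 69.4 RPKM in Ctrl CLT 1 and 0.14 RPKM in Ctrl CLT 2. For comparison, over the 12763 genes tested with at least 1 RPKM in cKO CLT, the median level in Ctrl CLT 1 was 90.2% of cKO CLT, and over the 5237 of them that were higher in both cKO CLT libraries it was 62.0%. None of the muscle or sebaceous markers was called over all genes in CLT, and their part in the levels of the fat cell genes was not tested.

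**Figure D4:**
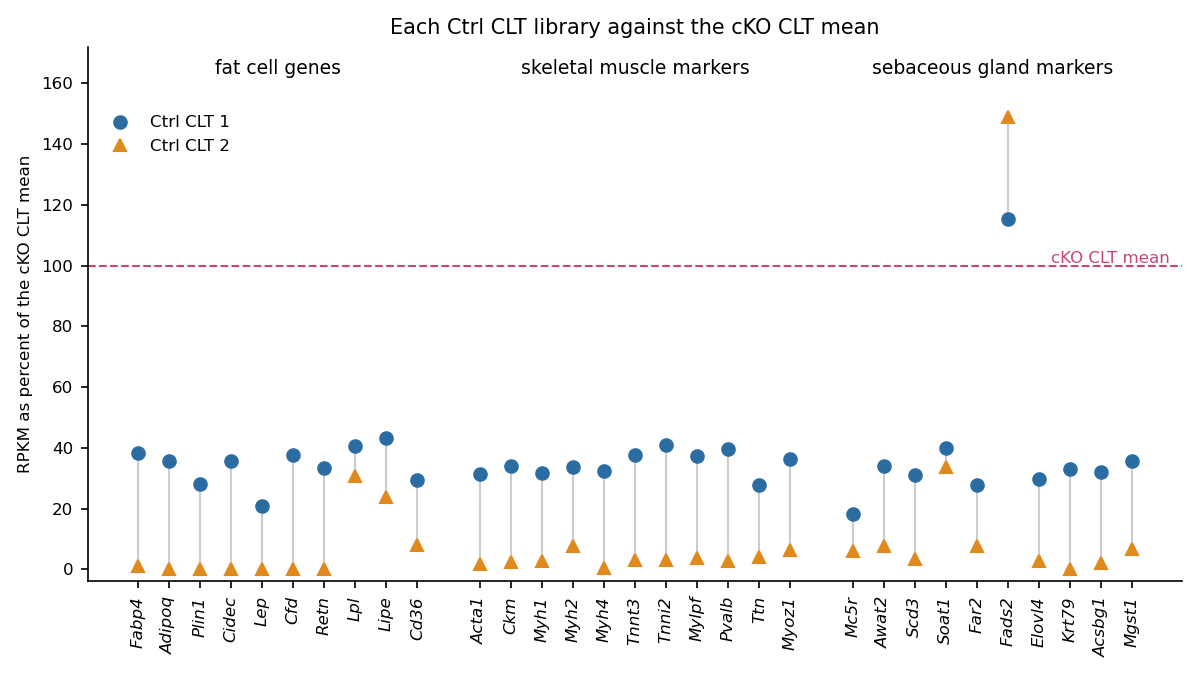
Level of each gene in Ctrl CLT 1 (circles) and Ctrl CLT 2 (triangles) as percent of the cKO CLT mean (dashed line at 100) for the 10 fat cell genes, 11 skeletal muscle markers and 10 sebaceous gland markers. Circles of the fat cell genes sit between 20.9% and 43.3%, those of muscle between 27.8% and 41.1%, and *Fads2* is the sebaceous marker that lies above 100% in both Ctrl CLT libraries.

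Endothelial cells and macrophages make *Fabp4* and *Cd36* too, and muscle makes *Cd36*, *Lpl* and *Lipe*, with the muscle markers as given above. Of 12 endothelial markers, 1 was higher and 7 were lower in both cKO CLT libraries, beside 37.2% higher and 35.1% lower over all genes tested, and their sum was 111 and 114 RPKM in cKO CLT against 130 and 173 RPKM in Ctrl CLT. The 10 macrophage markers summed to 149 and 148 RPKM in cKO CLT against 212 and 300 RPKM in Ctrl CLT, with 8 lower and 1 higher in both cKO CLT libraries. Whether any of these cells contributed to the fat cell genes was not tested. Median log2 fold changes were -0.24 for endothelial, -0.71 for macrophage, -1.97 for neutrophil, -0.33 for erythroid, -1.05 for fibroblast, -0.64 for dermal papilla and 0.64 for basal epithelial markers. In these 7 lists, 1 gene was called in CLT, *Alpl* of the dermal papilla list, which fell. The ameloblast markers had a median of -9.46.

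Across the 8 libraries, the genes with patterns most like the mean of the 10 were *Slc45a2*, *Vtcn1*, *Hspb7*, *Oca2*, *Cldn14*, *Cgn*, *Tgm5*, *Tgfa*, *Slc22a23* and *Ripk4*, with Pearson correlations of 0.99895 to 0.99934 over 14120 genes compared. The correlations describe 8 libraries that share tissue and genotype in pairs, and the mean pattern takes about 3 levels, 1 for cKO CLT, 1 for Ctrl CLT 1 and 1 for the other 5 libraries. *Slc45a2* and *Oca2* act in pigment cells and *Hspb7* in muscle. Roles of the others are not given here, so that no cell type is read from the list. Each of the 10 fat cell genes itself correlated with their mean at 0.951 (*Lipe*) to 0.998 (*Retn*). That mean contains the gene itself, so that these values are high by construction and nothing is read from them. A correlation above 0.95 was reached by 1746 genes, 12.4% of those compared, among them 33 of the 90 other fat metabolism genes, 11 skeletal muscle markers and 9 sebaceous gland markers. *Slc45a2*, at 6.10 and 6.22 RPKM in cKO CLT, was at 1.57 RPKM in Ctrl CLT 1 and 0 in Ctrl CLT 2.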

How the data were processed

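RNA-seq values of 8 libraries were used, 2 in each of 4 groups taken from the sample titles. The study describes biological duplicates from 2 independent litters, with cervical loop tissues pooled in each group. According to the submitters' processing notes, reads were checked with FastQC 0.72, trimmed with Trim Galore 0.4.3.1, aligned with STAR 2.6.0b-1 to mm10, counted with featureCounts 1.6.3 and analysed with DESeq2 2.11.40.2. The authors deposited RPKM per gene and library. Annotation, strand setting and the total behind the RPKM are not given in the sources used here. Of the checked values, 100.0% were whole reads within 0.01 read once multiplied by gene length, which gave the reads and totals. Floors of 3 reads reflect nothing but counting error.

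On the deposited values, log2(RPKM + 1) was tested with limma 3.58.1 (variance trend) in R 4.3.3, for genes with at least 1 RPKM in at least 2 libraries, calls being made at a Benjamini-Hochberg adjusted p under 0.05. The 4 libraries of each region had their own fit, and the difference between regions used all 8. An exact permutation test of 2 against 2 cannot go below 0.333, and p-values measure the spread between these libraries.

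The 10 genes and all lists were chosen with earlier results of these data known. Named were the 10 genes, *Pparg* and *Cebpa*. Of each metabolism list, up to 3 called genes per region and direction were named by smallest p, or the 2 smallest p where none was called. Genes named by their p in CLH, such as *Bscl2*, *Fitm1*, *Fasn*, *Thrsp*, *Aqp7* and *Irs2*, need not be those that changed most in CLT. The 2 most abundant genes of each marker list and the 10 genes most correlated with the mean pattern could also be named. *Ptrf* stood in for *Cavin1*, *Emr1* for *Adgre1* and *Beta-s* for *Hbb-bs*, and *Hbb-bt* was not matched. Other settings tried were median-of-ratios scaling, pseudocounts of 0.1 and 0.5, no filter, all 8 libraries in 1 fit, a replicate block, voom on recovered reads and each library left out. Columns of per-sample values left unused numbered 0.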

Additional observations from a re-analysis of the deposited data

Results flagged for a closer look

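For 18 of the named fat metabolism genes, the limma interaction over 8 libraries called a different cKO effect in CLT than in CLH. Over all genes tested, 8.05% were called larger in CLT and 9.58% smaller. Most named genes were picked by their p in these same libraries, so that nothing is read from this count. As given above, the calls depended on single libraries. On the log2(RPKM + 1) scale, the effect was higher in CLT by 1.01 for *Pparg* (adjusted p = 0.020), 0.93 for *Ebf1* (0.045), 1.59 for *Scd1* (0.0066), 1.38 for *Thrsp* (0.029) and 0.73 for *Fasn* (0.030). It was higher by 0.89 for *Abhd5* (0.048), 0.80 for *Gpihbp1* (0.044), 1.48 for *Aqp7* (0.049), 1.26 for *Adm* (0.017), 0.83 for *Cdh13* (0.037) and 1.52 for *Cav1* (0.0051). It was also higher by 1.15 for *Zic1* (0.038), 0.97 for *Ly6a* (0.019) and 0.79 for *Cd34* (0.013). The difference was -2.42 for *G0s2* (0.0023), -1.14 for *Apln* (0.049), -1.12 for *Irs2* (0.018) and -1.12 for *Ppargc1a* (0.021). *Ebf1*, *Thrsp*, *Aqp7*, *Adm* and *Cav1* had both cKO libraries lower in CLH and both higher in CLT, and *Irs2* the reverse. In CLH, 18.8% of all genes tested had both cKO libraries lower and 19.9% both higher. In CLT, 37.2% had both higher and 35.1% both lower. None of the genes named here was called in CLH, and some were named for their small p there. In CLH, *Thrsp* had 18 and 12 reads in Ctrl against 2 and 4 in cKO. *Aqp7* had 5 and 7 against 0 and 3.

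*Cd36* had both cKO libraries below both Ctrl libraries in CLH (log2 fold change -0.37, not called) and above both in CLT. This difference was not tested because the choice of the gene was taken to rest on its CLT levels.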

How the results depend on the processing

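In CLT, 11 genes were called higher and 237 lower. These counts became 0 and 3 with no filter on low values, 3352 and 2831 with all 8 libraries in 1 fit, and 0 and 0 with voom. Among the 90 fat metabolism genes, 2 higher and 1 lower became 0 higher with median-of-ratios scaling, 0 and 0 with no filter or voom, and 51 and 14 with all 8 libraries in 1 fit. The correlation of deviations of same-numbered libraries was 0.0656 between Ctrl and cKO in CLH, -0.192 in CLT, 0.195 between the regions in Ctrl, 0.307 between them in cKO, and -0.136 and -0.113 in the other comparisons. The numbers were not treated as pairs, since not every correlation was above 0.1 and the labels do not tie a number to a litter. With a replicate block the CLT counts were 888 higher and 856 lower over all genes and 17 and 4 of the fat metabolism genes, and the counts for the difference fell from 1139 to 513 higher over all genes and from 25 to 12 among the fat metabolism genes. A block with the numbers crossed, added after the data were seen, gave 0 higher and 9 lower in CLT and 0 calls in CLH. With 1 library left out, the CLT counts ran from 0 to 4445 higher and from 11 to 5393 lower over all genes, and from 0 to 55 and 0 to 25 for fat metabolism. The counts for the difference ran from 2 to 4028 higher and 196 to 4904 lower, and from 1 to 53 and 1 to 23 for fat metabolism. In CLH, 0 genes were called under every alternative. The cause of these changes was not tested. Sign changes with 1 library left out were met in CLH for *Fabp4* (-0.25 to 0.14, including 0.14 without Ctrl CLH 2 and 0.13 without cKO CLH 1), *Lipe* (-0.00021 to 0.29) and *Cebpa* (-0.059 to 0.23), none of them called. *Lipe* was at -0.00021 and *Cebpa* at -0.059 without cKO CLH 2. In CLT the log2 fold changes of the 10 fat cell genes ran from 0.69 for *Retn* without Ctrl CLT 2 to 6.27 for *Fabp4* without Ctrl CLT 1. For all 10, both cKO CLT libraries lay above both Ctrl CLT libraries. Leaving out 1 library could therefore not change the sign, and nothing is read from its staying positive. Over the alternatives, adjusted p for *Fabp4*, *Lpl*, *Lipe* and *Cd36* in CLH ranged from 0.44 to 1. Depth limits the 6 genes with 0 to 29 reads over CLH.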
